A study of Mus musculus with 9 samples.

Results

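The 10 genes described here encode feedback inhibitors of the mitogen-activated protein kinase (MAPK) pathways or closely related output genes. They are the dual-specificity phosphatases Dusp1, Dusp2, Dusp4, Dusp5, Dusp6 and Dusp10, the Sprouty family genes Spry1, Spry2 and Spred1, and Phlda1. They were picked out by gene name from the 55401 gene rows of the RNA-Seq tables, and each of the 10 had a read in at least 1 of the 9 libraries. The libraries came from a mouse model of acute myeloid leukemia in which lineage-negative bone marrow cells of C57BL/6-Ly5.1 mice were transduced with a gammaretroviral vector for Hoxa9 and Meis1 (H9M cells). Clones carried a fluorescent color code on a lentiviral vector, were pooled and were transplanted into lethally irradiated mice. All groups shared the Hoxa9 and Meis1 transgenes and a color-coding vector. Cells of 1 color code (CD45.1+EGFRt bright, cKit+, CD11b dim or negative) were sorted from spleen for each library.

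The 3 pre-malignant libraries held the 33BC-D clone, the 38BC-D clone and the 43BC-D clone, each sorted from mouse #15, which was sacrificed early. The 3 de novo expanded libraries held the same clones at the leukemic endpoint, 38BC-D from mouse #13, 43BC-D from mouse #14 and 33BC-D from mouse #17. The 3 stably expanded libraries held the single clone 34BC-D, once from each of these endpoint mice. Since every pre-malignant library came from 1 mouse and every stably expanded library from 1 clone, group and mouse, or group and clone, cannot be told apart there. Within a group the labels do not tie a library to its clone or mouse. Libraries are therefore numbered 1 to 3, and the labels do not say whether equal numbers in different groups share a clone or mouse.

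The route from receptors such as Kit through RAS and RAF leads to the kinase ERK. Together, the MAPK cascades carry signals to the kinases ERK, p38 and JNK. The dual-specificity phosphatases remove phosphates from these kinases, and many are themselves transcribed when the kinases are active. Sprouty and Spred proteins act further up, at the level of receptor, RAS and RAF, and Spred1 brings the RAS inhibitor neurofibromin to the membrane. In hematopoietic cells these loops set how long a cytokine signal lasts.

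Among the 8 of 10 genes with an entry in the RefSeq promoter table (GRCm38.p6, 250 bases before to 50 bases after the start site; Dusp4 and Phlda1 had none), Dusp1 and Dusp5 held matches to the motifs searched. Their promoters are shown because both genes are classical early response genes and yet behaved differently in the libraries. The Dusp1 window is chr17:26508423-26508722 on the minus strand, with the cAMP response element TGACGTCA and a separate copy of its first 7 letters in capitals. The Dusp5 window is chr19:53528895-53529194 on the plus strand, with a pair of adjoining CArG boxes, the serum response factor motif, in capitals.
Dusp1: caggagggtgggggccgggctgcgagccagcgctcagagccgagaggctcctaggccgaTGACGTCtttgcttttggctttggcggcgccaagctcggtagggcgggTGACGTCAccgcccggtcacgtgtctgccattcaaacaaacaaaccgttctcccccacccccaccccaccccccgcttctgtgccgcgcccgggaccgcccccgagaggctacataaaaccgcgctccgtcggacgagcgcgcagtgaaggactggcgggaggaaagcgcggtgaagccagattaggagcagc
Dusp5: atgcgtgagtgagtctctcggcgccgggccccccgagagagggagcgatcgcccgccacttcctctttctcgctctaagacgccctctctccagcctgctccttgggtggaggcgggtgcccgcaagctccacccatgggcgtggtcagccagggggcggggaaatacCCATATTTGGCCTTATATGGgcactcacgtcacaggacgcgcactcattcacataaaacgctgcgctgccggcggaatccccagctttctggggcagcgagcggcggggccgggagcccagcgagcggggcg
The full TGACGTCA began 143 bases and the shorter TGACGTC 191 bases upstream of the Dusp1 start site. The CArG boxes began 82 and 72 bases upstream of the Dusp5 start site. On either strand, TGACGTCA was found in 1.79% and TGACGTC, which overlaps it, in 3.21% of the 32851 promoters in the table, and the CArG box in 1.63%. The AP-1 motif TGACTCA (5.2% of promoters) and the ETS motif CCGGAAGT (3.89%) were in none of the 8 windows. These matches are descriptions of letters, not of binding.

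Reads on genes ranged from 10379739 to 15551196 per library, and mitochondrial genes took 8.54% to 13.1% of them. Kit, Itgam, Ptprc, Hoxa9 and Meis1, which mark the sorted cells and the model, were present in every library, Kit at 1937 to 3979 normalized counts. The 5 platelet and megakaryocyte markers together summed to between 15.95 and 41.55 over the 9 libraries. Of these markers, Ppbp and Gp1bb had at most 3 reads in any library. The 8 T cell markers together summed to between 8.14 and 76.4. The summed level of 8 B cell markers was 2958 to 3548 in pre-malignant, 1044 to 2832 in de novo expanded and 1195 to 1444 in stably expanded libraries. Macrophage and monocyte markers summed to 4299 to 6303 and erythroid markers to 31.6 to 487 over the 9 libraries. The sum of 8 neutrophil markers was 2448 to 3010 in pre-malignant, 2013 to 7713 in de novo and 7328 to 58939 in stably expanded libraries. The sum of 8 myeloid progenitor markers was 129832 to 146988 in pre-malignant and 162579 to 201477 in stably expanded libraries. De novo expanded library 3 had the highest sum of all at 301091. The other de novo expanded libraries had the lowest, 55266 and 74534. The share of reads on olfactory, vomeronasal and trace amine receptor genes, which these cells are not known to express, was 0.00833% to 0.0186% in pre-malignant and 0.00219% to 0.0122% in leukemic libraries. In such bulk samples, fewer cells of a type and less RNA per cell cannot be told apart.

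Levels below are normalized counts, that is reads divided by size factors computed over the 9 libraries. Levels are compared between genes only per kilobase of gene length. On that per-kilobase scale, averaged over the 9 libraries, Dusp1 was the most abundant at 513, followed by Dusp2 at 255 and Spry2 at 154. Dusp5 at 69.1, Dusp6 at 67.2 and Spred1 at 66.0 were neighbours whose means differed by far less than their spread over libraries. Dusp10 reached 23.7 and Phlda1 14.7, while Spry1 at 3.57 and Dusp4 at 1.07 were near the limit of detection.

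**Figure D1:**
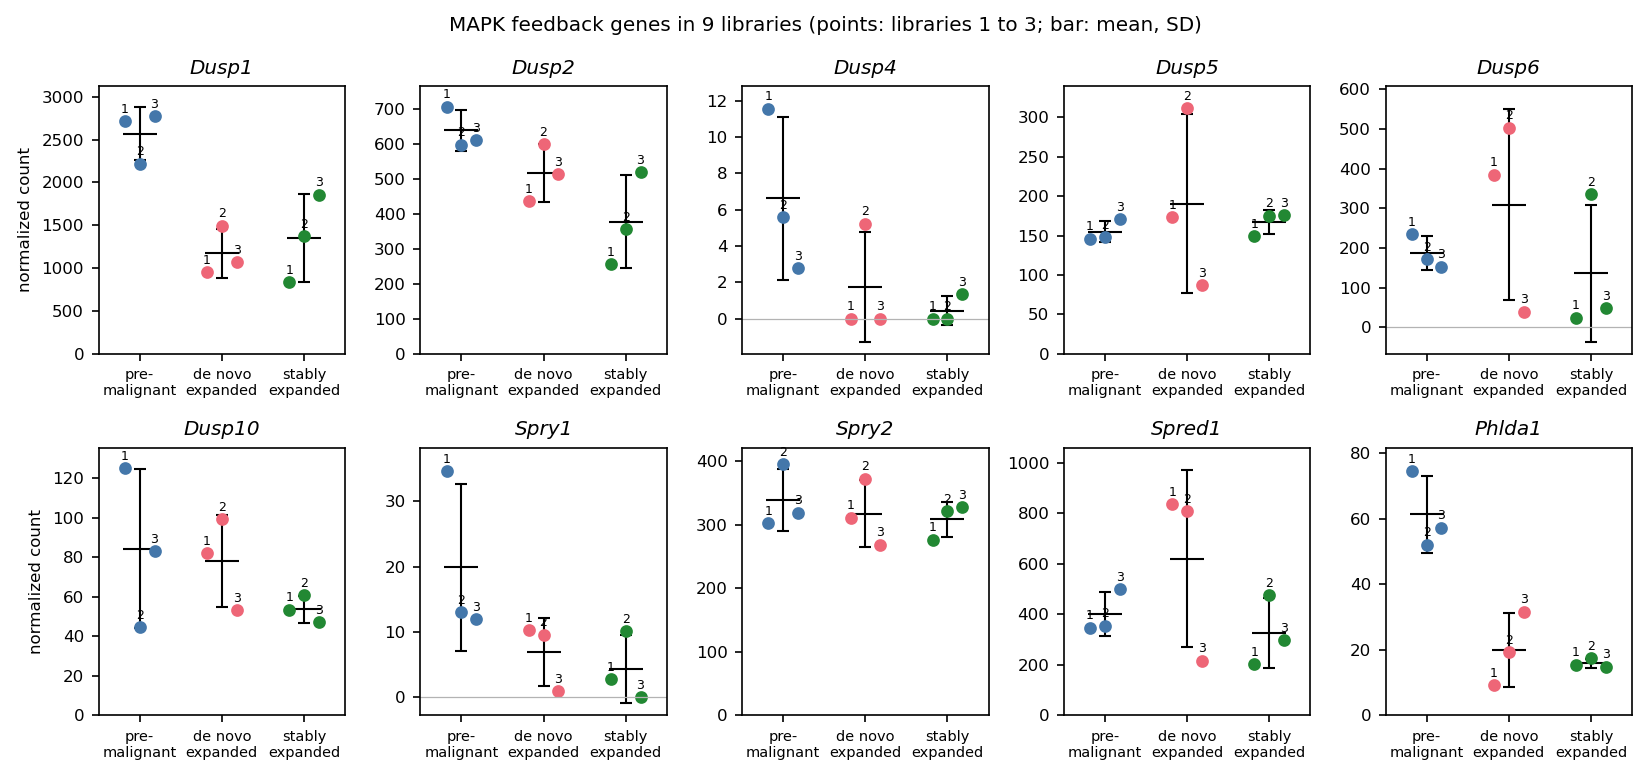
Normalized counts (vertical axis, linear, a separate scale for each gene) of the 10 genes in the 3 pre-malignant, 3 de novo expanded and 3 stably expanded libraries. Points are libraries, numbered 1 to 3 within a group, and the bars give mean and SD; Dusp1 and Phlda1 were higher in each pre-malignant library than in any leukemic library, whereas Dusp6 and Spred1 were split within the leukemic groups.

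Dusp1 (ENSMUSG00000024190.7, chr17:26505590-26562128, minus strand, GRCm38.p6) encodes MKP-1, a nuclear phosphatase of p38, JNK and ERK. It was higher before leukemia in every library. Its normalized counts were 2716, 2219 and 2773 in the pre-malignant, 947, 1492 and 1067 in the de novo expanded and 830, 1374 and 1856 in libraries of the stably expanded clone. The lowest pre-malignant value lay above the highest of the 6 leukemic values, and the de novo and stably expanded ranges overlapped. The log2 difference between de novo expanded and pre-malignant libraries was −1.14 (SE 0.18, limma adjusted p = 0.301), and between stably expanded and pre-malignant libraries −0.99 (SE 0.23, limma adjusted p = 0.0284). The second passed the adjusted p threshold of 0.05 but, at 1.99-fold lower, not the 2-fold limit that was also asked for a call. The gene model reaches far upstream and overlaps Ergic1 on the opposite strand, which had 559 to 1197 reads per library, and the strand setting of the counting is not given in the sources used here.

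Dusp2 (ENSMUSG00000027368.6, chr2:127336159-127338376), the nuclear ERK and p38 phosphatase PAC-1 of blood cells, had normalized counts of 706, 597 and 611 before leukemia. Its counts were 436, 600 and 513 in the de novo expanded and 256, 356 and 520 in the stably expanded libraries. All 3 stably expanded values lay below the pre-malignant ones, whereas de novo expanded library 2 reached the pre-malignant range. The log2 difference from the pre-malignant libraries was −0.81 in the stably expanded (SE 0.22, limma adjusted p = 0.0461) and −0.29 in the de novo expanded libraries (SE 0.15, limma adjusted p = 0.505). The first passed the p threshold and not the fold limit.

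Dusp5 (ENSMUSG00000034765.6, chr19:53529109-53542431), a nuclear phosphatase specific for ERK, did not follow Dusp1. It had normalized counts of 146, 148 and 171 in the pre-malignant, 173, 312 and 86.6 in the de novo expanded and 149, 175 and 176 in libraries of the stably expanded clone. The pre-malignant and stably expanded values were tightly grouped, and the highest and the lowest value of all were both de novo expanded libraries. The log2 differences from the pre-malignant libraries were 0.13 (SE 0.42) in the de novo expanded and 0.11 (SE 0.19) in the stably expanded libraries, within their errors.

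Dusp6 (ENSMUSG00000019960.8, chr10:99263231-99267489) encodes MKP-3, the cytoplasmic ERK phosphatase whose transcript is a common readout of ERK activity. It was the most variable of the well detected genes. Its normalized counts were 234, 172 and 152 in the pre-malignant, 385, 503 and 39.7 in the de novo expanded and 24.4, 335 and 48.3 in the stably expanded libraries. De novo expanded libraries 1 and 2 and stably expanded library 2 lay above all pre-malignant libraries, and the other 3 leukemic libraries lay below all of them. The highest value was 20.6 times the lowest, and the low libraries rested on 44, 27 and 36 reads. The coefficient of variation over the 9 libraries was 80.0%, higher than that of 96.4% of 13960 genes with a mean of at least 10, whose median was 21.3%. Group means hid this split, and the log2 differences had wide errors, 0.13 (SE 0.86, limma adjusted p = 0.970) for de novo expanded and −1.30 (SE 0.72, limma adjusted p = 0.289) for stably expanded against pre-malignant libraries.

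Dusp10 (ENSMUSG00000039384.8, chr1:184013302-184075636), a phosphatase that prefers p38 and JNK, was low and scattered before leukemia. Normalized counts were 125, 44.7 and 83.1 in the pre-malignant, 82.1, 99.4 and 53.2 in the de novo expanded and 53.4, 60.6 and 47.0 in libraries of the stably expanded clone. The pre-malignant libraries held both the highest and the lowest value. The log2 difference from them was −0.01 (SE 0.42) in the de novo expanded and −0.53 (SE 0.37, limma adjusted p = 0.404) in the stably expanded libraries.

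Dusp4 (ENSMUSG00000031530.6, chr8:34807297-34819894), the nuclear phosphatase MKP-2, was barely detected. Its reads numbered 11, 6 and 3 before leukemia, 0, 6 and 0 in de novo expanded and 0, 0 and 1 in stably expanded libraries. With counts at or under a floor of 3 reads in 6 of 9 libraries, it failed the filter for every test, and no fold is given.

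Spry2 (ENSMUSG00000022114.5, chr14:105891947-105896819), an inhibitor of receptor tyrosine kinase signaling to RAS and RAF, was the steadiest gene of the set. The 9 normalized counts were 303, 395 and 320 in the pre-malignant, 311, 373 and 269 in the de novo expanded and 277, 321 and 328 in libraries of the stably expanded clone. The 3 ranges overlapped, and the highest value was 1.47 times the lowest. Its coefficient of variation of 12.7% was lower than that of 76.4% of the genes compared. Its log2 differences from the pre-malignant libraries were −0.08 (SE 0.18) and −0.13 (SE 0.16) in the de novo and stably expanded libraries.

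Spry1 (ENSMUSG00000037211.12, chr3:37639947-37644598), the related inhibitor, was near the detection limit. Its reads numbered 33, 14 and 13 in the pre-malignant, 9, 11 and 1 in the de novo expanded and 3, 11 and 0 in the stably expanded libraries. All 6 leukemic values lay below the pre-malignant ones after normalization as well. Fitted log2 differences were −1.61 (SE 0.83, limma adjusted p = 0.503) for de novo expanded and −2.43 (SE 0.88, limma adjusted p = 0.116) for stably expanded against pre-malignant libraries. At these counts a fitted value depends on the pseudocount of 1. The gene passed the filter on low values only through the pre-malignant libraries, so that its direction is no independent evidence.

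Spred1 (ENSMUSG00000027351.14, chr2:117121374-117182279), which restrains RAS with neurofibromin, had the same libraries at its extremes as Dusp6. Its 9 normalized counts were 346, 355 and 500 in the pre-malignant, 835, 808 and 216 in the de novo expanded and 202, 475 and 295 in the stably expanded libraries. De novo expanded libraries 1 and 2 were the highest, and stably expanded library 1, de novo expanded library 3 and stably expanded library 3 were the lowest, as for Dusp6. The log2 differences from the pre-malignant libraries were 0.44 (SE 0.50, limma adjusted p = 0.776) in the de novo expanded and −0.37 (SE 0.27, limma adjusted p = 0.430) in the stably expanded libraries.

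Phlda1 (ENSMUSG00000020205.8, chr10:111506286-111508645) encodes a pleckstrin homology-like domain protein, and its transcript is induced by growth factor and ERK signaling. It was the only one of the 10 genes called in the comparisons of 6 libraries. Its normalized counts were 74.6, 52.1 and 57.3 in the pre-malignant, 9.12, 19.2 and 31.6 in the de novo expanded and 15.4, 17.4 and 14.8 in the stably expanded libraries. Each leukemic value lay below each pre-malignant value. Phlda1 was lower in the stably expanded than in the pre-malignant libraries (log2 difference −1.87, SE 0.36, 3.66-fold, limma adjusted p = 0.0132). In the de novo expanded libraries the log2 difference was −1.69 (SE 0.47, limma adjusted p = 0.380).

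Read by comparison, the first question was what separated the same clones before and after expansion. Of 14195 genes tested between de novo expanded and pre-malignant libraries, 0 were called by limma, which is 0% of them, with 1597 at an unadjusted p under 0.05. Of the 9 feedback genes tested, 0 were called. Spry1, which passed the filter only through the pre-malignant libraries, is left out of the counts that follow. Of the other 8, Dusp1 and Phlda1 had an unadjusted p under 0.05, both lower, against 5.26% of all genes lower at that p. Dusp1 and Phlda1 were also the 2 of 8 that were lower without overlap, against 8.5% of all genes. The median log2 difference was −0.05 over the 8 genes and 0.01 over all genes. DESeq2 on the recovered reads called 62 genes (0.437%), Dusp1 among them (log2 difference −1.13, DESeq2 adjusted p = 6.66e-05), and edgeR called 0.

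This comparison turned on de novo expanded library 3. Without it, limma called 215 genes, which is 1.51% of those tested, among them 4 of the 9 feedback genes. Dusp1 was then lower (log2 difference −1.09, limma adjusted p = 0.0103) and Phlda1 lower (log2 difference −2.10, limma adjusted p = 0.0297). Dusp6 was higher, with a log2 difference of 1.28 (limma adjusted p = 0.0128), and so was Spred1, with 1.07 (limma adjusted p = 0.0102). Leaving out any of the other 5 libraries gave 0 calls among the feedback genes. Library 3 differed from the other de novo expanded libraries also in the marker sums given above, with 1044 against 2165 and 2832 for B cell and 7713 against 2013 and 2523 for neutrophil markers, and the part of cell composition in these values was not tested.

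**Figure D2:**
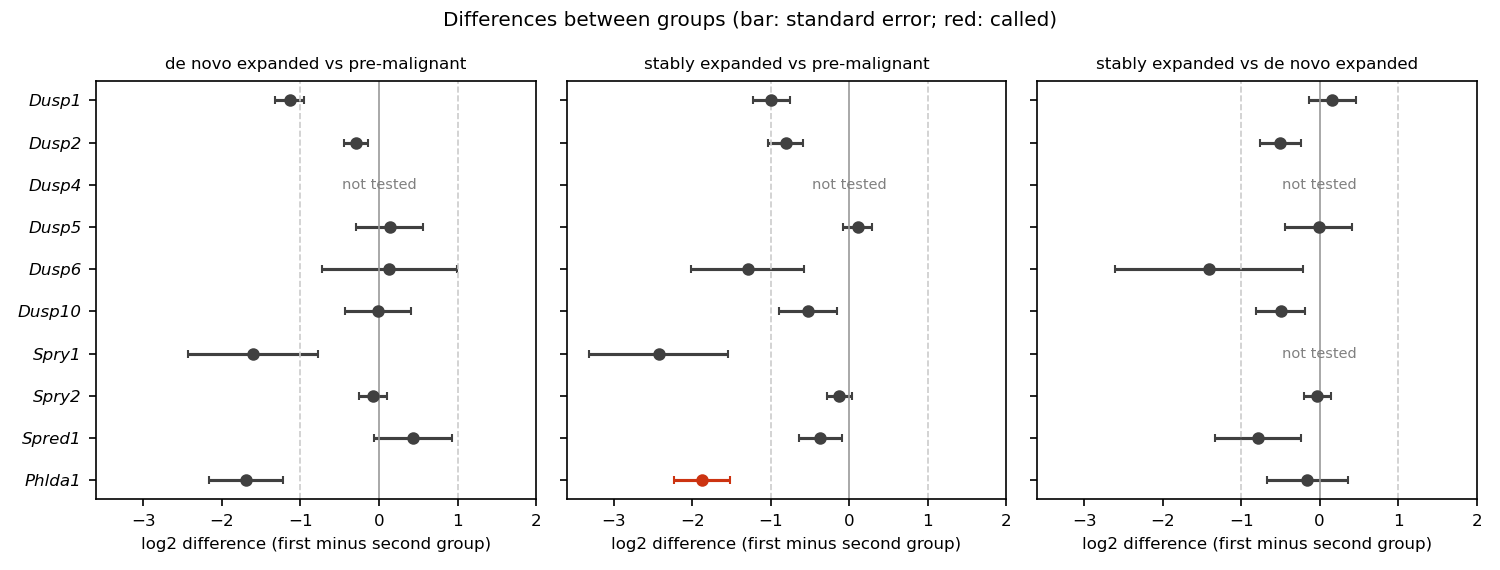
Log2 differences (horizontal axis, first minus second group named above each panel) of the 10 genes in the 3 comparisons, with bars for the standard error of the limma fit and dashed lines at 2-fold. Phlda1 in the stably expanded libraries is the 1 called difference; Dusp4, and Spry1 in the last panel, failed the filter on low values.

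The second comparison set the stably expanded clone against the pre-malignant clones. Of 13968 genes tested, limma called 384 (2.75%), 216 of them lower (1.55%). Of the 9 feedback genes tested, 1 was called, Phlda1, and it was lower. With Spry1 again left out, 3 of 8 genes (Dusp1, Dusp2 and Phlda1) had an unadjusted p under 0.05 and were lower, against 12.3% of all genes lower at that p. These 3 were lower without overlap, against 14.6% of all genes. The median log2 difference was −0.67 over the 8 genes and 0.00 over all genes, and 7 of the 8 values were below 0, Dusp5 being the exception. The B cell marker sum was also lower in the stably expanded libraries, 1195 to 1444 against 2958 to 3548, and none of its 8 markers was at 3 reads or fewer throughout. Its part in these values was not tested.

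Single libraries also mattered here. Without stably expanded library 2, which left 3.28% of all genes called, Dusp6 was called lower (log2 difference −2.38, limma adjusted p = 0.00582), as were Spry1, whose direction the filter fixes (log2 difference −3.27, limma adjusted p = 0.0495), and Dusp1 (log2 difference −1.04, limma adjusted p = 0.0421), beside Phlda1. Without stably expanded library 3, which left 2.96% called, Dusp1 (log2 difference −1.26, limma adjusted p = 0.00995) and Dusp2 (log2 difference −1.07, limma adjusted p = 0.0108) were called lower beside Phlda1. Phlda1 lost its call without pre-malignant library 1 (log2 difference −1.72, limma adjusted p = 0.0633) and in 1 fit of all 9 libraries (limma adjusted p = 0.0871). The adjusted p of Dusp1 ran from 0.00995 to 0.0927 over the 6 fits with 1 library left out, and that of Dusp2 from 0.0108 to 0.145. In 1 fit of all 9 libraries neither passed the threshold (limma adjusted p = 0.113 for Dusp1 and 0.127 for Dusp2).

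**Figure D3:**
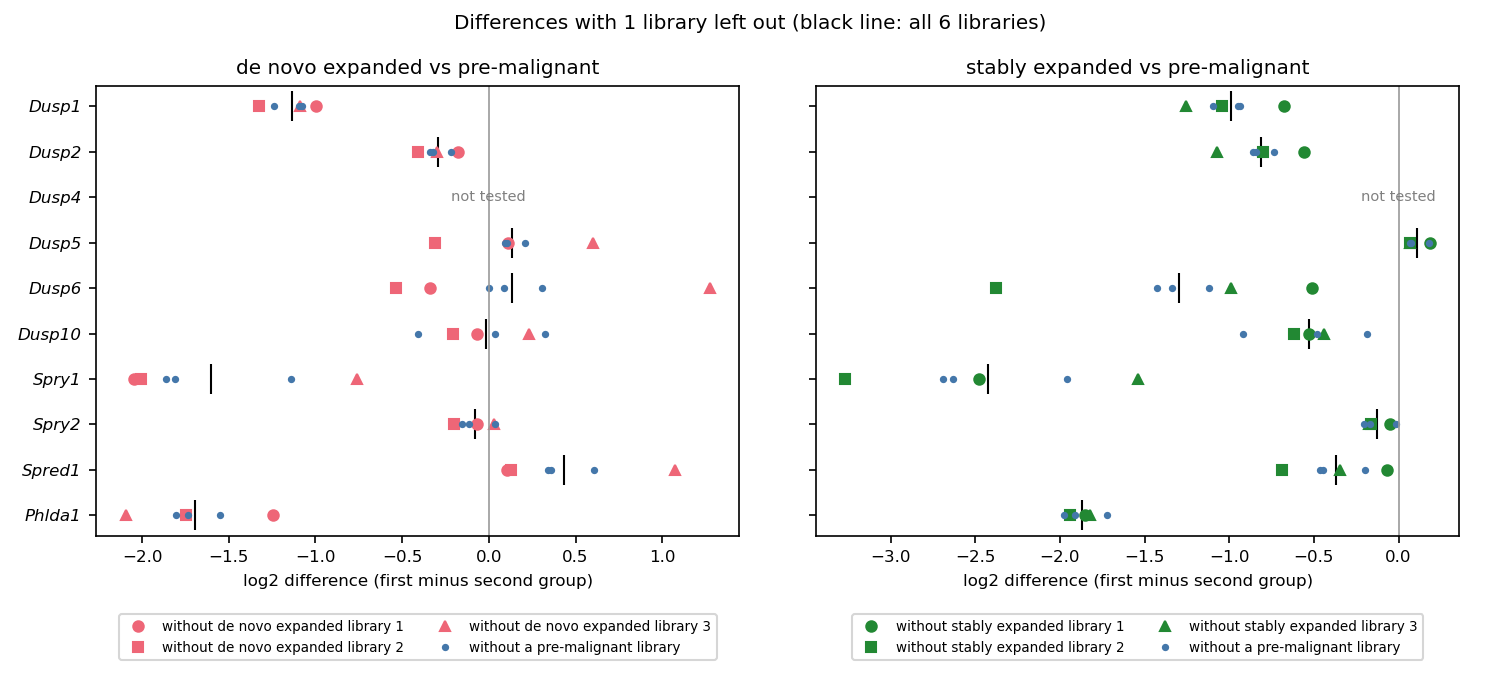
Log2 differences (horizontal axis, first minus second group) from the pre-malignant libraries with 1 library left out of the fit, for de novo expanded (left) and stably expanded libraries (right). Each marker is 1 fit and the black line the fit of all 6 libraries; Dusp6 moved from −0.54 to 1.28 on the left, while Dusp1 and Phlda1 stayed below 0 in every fit shown.

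The third comparison set the leukemic groups against each other. Of 13758 genes tested between stably and de novo expanded libraries, limma called 1 (0.00727%). Of the 8 feedback genes tested, 0 were called and 0 had an unadjusted p under 0.05 (664 of all genes had one), and DESeq2 and edgeR likewise called 0 of them. At that p 2.11% of all genes were lower in the stably expanded libraries, and 4.95% were lower without overlap, which held for 0 of the 8. The largest differences were those of Dusp6, −1.41 (SE 1.20, limma adjusted p = 0.897), and Spred1, −0.79 (SE 0.55, limma adjusted p = 0.893). Dusp1 differed by 0.16 (SE 0.30) and Phlda1 by −0.16 (SE 0.52). Without de novo expanded library 3, Spred1 was called lower in the stably expanded libraries (log2 difference −1.43, limma adjusted p = 0.0229), among 511 genes (3.71%). The pre-malignant libraries enter both of the comparisons before this one, so the values of Dusp1 and Phlda1 there are not independent of each other.

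Of the 10 MAPK phosphatase genes listed, 6 of which belong to the feedback set, 7 were tested in each comparison and 0 were called. Dusp7, a cytoplasmic ERK phosphatase outside the set, averaged 196 normalized counts per kilobase over the 9 libraries. It was lower in the stably expanded than in the pre-malignant libraries (log2 difference −0.58, SE 0.13, limma adjusted p = 0.0242), under the fold limit, and did not pass in 1 fit of all 9 libraries (limma adjusted p = 0.189). Dusp16 had 0.00 to 47.9 normalized counts. Of 15 atypical dual-specificity phosphatases, which lack the MAPK binding domain, 9 were tested and 0 called.

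Of 10 Sprouty, Spred and PHLDA genes, 6 were tested against the pre-malignant libraries and 5 between the leukemic groups, and Phlda1 was the 1 call. Spred2, a relative of Spred1, had normalized counts of 245, 234 and 295 in the pre-malignant, 446, 474 and 129 in the de novo expanded and 151, 367 and 120 in the stably expanded libraries. As for Spred1 and Dusp6, de novo expanded libraries 1 and 2 were the highest, and de novo expanded library 3 and stably expanded libraries 1 and 3 were the lowest. Spred3 was lower in the stably expanded libraries without passing the test (log2 difference −1.32, SE 0.48, limma adjusted p = 0.113).

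Other genes downstream of ERK did not all share this pattern. Of the 8 tested against the pre-malignant libraries, 0 were called in either comparison, and 0 of 7 were called between the leukemic groups. In the stably expanded libraries 8 of 8 values were below 0 (median log2 difference −0.96, against 0.00 over all genes). Epha2 and Fosl1 were among them, although their mean normalized counts were higher than in the pre-malignant libraries (13.6 against 9.54, and 18.8 against 12.0). In the de novo expanded libraries 4 of 6 were below 0 (median −0.29, against 0.01), leaving out Egr3 and Fosl1, which passed the filter there only through the pre-malignant libraries. Egr1, Egr3 and Ier3 also belong to the immediate early genes below. Cyclin D1 (Ccnd1), which drives entry into the cell cycle, had normalized counts of 140, 188 and 313 in the pre-malignant, 991, 704 and 7.22 in the de novo expanded and 5.43, 309 and 29.5 in the stably expanded libraries. Dusp3, the ERK and JNK phosphatase VHR, an atypical phosphatase, had 80.9, 113 and 119, then 310, 280 and 10.8, and then 48.0, 133 and 34.9 in the same libraries. Etv5, an ETS factor induced by ERK and chosen here after its values were seen, had 91.2 and 117 in de novo expanded libraries 1 and 2 and between 2.71 and 33.2 elsewhere. The early growth response factor Egr1 differed from these, with 1003, 891 and 848 in the pre-malignant, 642, 313 and 189 in the de novo expanded and 74.2, 1028 and 345 in the stably expanded libraries. Egr3, a related factor, had 62.0, 23.3 and 29.5, then 6.84, 6.10 and 7.22, and then 4.52, 24.8 and 9.40. For Egr1, de novo expanded libraries 1 and 2 lay below all pre-malignant libraries. The same held for Egr3, but the filter fixed its direction in that comparison, so it is no independent evidence.

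**Figure D4:**
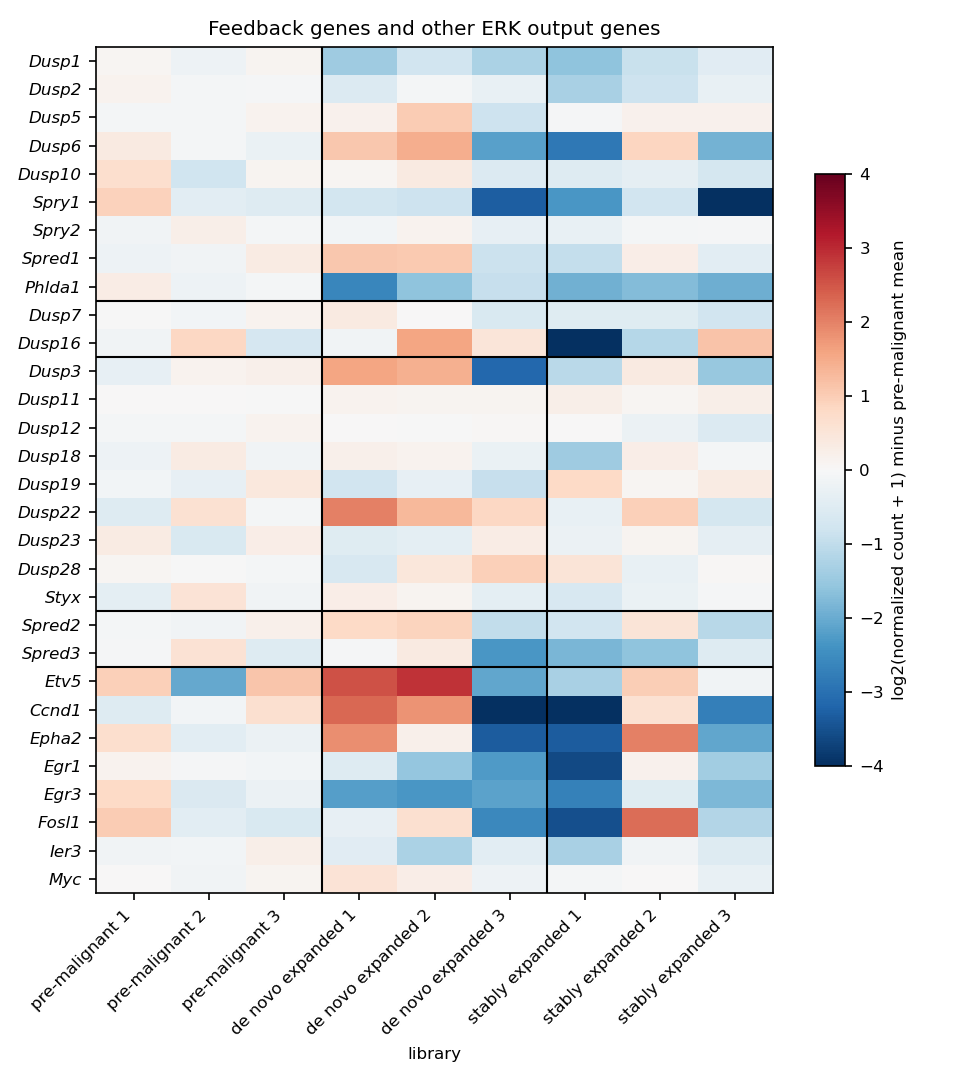
Log2(normalized count + 1) minus the mean of the 3 pre-malignant libraries (color scale, capped at 4 in either direction) for genes with a mean of at least 10 over the 9 libraries (columns). Rows are the 9 feedback genes that met this, followed by the other MAPK phosphatases, the atypical phosphatases, Spred2 and Spred3, and other ERK output genes; Dusp6, Spred1, Dusp3, Spred2 and Ccnd1 share raised de novo expanded libraries 1 and 2 and lowered de novo expanded library 3 and stably expanded libraries 1 and 3.

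Upstream of the feedback genes lie the cascades themselves. Of 21 genes of the ERK cascade, all 21 were tested and 0 called in each comparison, and their summed level was 24435 to 24477 in pre-malignant, 22304 to 25860 in de novo expanded and 23676 to 24888 in stably expanded libraries. In the stably expanded libraries the adaptor Gab2 was 1.61-fold lower (log2 difference −0.69, SE 0.13, limma adjusted p = 0.0130) than in the pre-malignant ones, under the fold limit, and did not pass in 1 fit of all 9 libraries (limma adjusted p = 0.0796). Kit (log2 difference −0.30, SE 0.10, limma adjusted p = 0.0795) did not pass the test. Of 16 genes of the p38 and JNK cascade, whose kinases Dusp1 and Dusp10 act on, 14 were tested and 0 called in the comparisons that involve the de novo expanded libraries. Against the pre-malignant libraries, the stress kinase gene Map3k5 was called lower (log2 difference −1.39, SE 0.21, limma adjusted p = 0.00606) and Mapk13, which encodes p38 delta, higher in the stably expanded libraries (log2 difference 2.48, SE 0.35, limma adjusted p = 0.00497). Both kept their calls in all 6 fits with 1 library left out and lost them in 1 fit of all 9 libraries (limma adjusted p = 0.192 for Map3k5 and 0.112 for Mapk13). The neutrophil marker sum given above was also higher in the stably expanded than in the pre-malignant libraries, and its part in the Mapk13 value was not tested.

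Dusp1, Dusp2 and Phlda1 belong to the transcripts that cells induce within minutes of a stimulus, so the immediate early genes were set beside them. The list held 23 names for 22 such genes, since Cyr61 and Ccn1 name the same gene, and all 22 were in the tables. Against the pre-malignant libraries, 0 of 20 were called in the de novo expanded and 9 of 19 in the stably expanded libraries, all 9 lower (Fos, Junb, Atf3, Nr4a2, Klf4, Klf6, Zfp36, Ppp1r15a and Maff). Of all genes, 0% were called in the de novo expanded libraries, and 2.75% in the stably expanded libraries, 1.55% lower. Between the leukemic groups 0 of 18 were called. With Jund and Egr3 left out of the first comparison, since they passed the filter only through the pre-malignant libraries, 13 of 18 and 17 of 19 were lower at an unadjusted p under 0.05, against the 5.26% and 12.3% of all genes given above. Fos, a partner in the AP-1 factor, was lower in the stably expanded than in the pre-malignant libraries (log2 difference −1.49, SE 0.37, limma adjusted p = 0.0354). So was Ppp1r15a, a stress-induced phosphatase subunit (log2 difference −1.63, SE 0.18, limma adjusted p = 0.00284). With 1 library left out, Ppp1r15a kept its call in 6 of 6 fits, Junb and Zfp36 in 5 (not without stably expanded library 1), Nr4a2 and Klf4 in 4, Atf3 and Klf6 in 3, and Fos and Maff in 2. The adjusted p of Fos ran from 0.00752 to 0.0979 over these limma fits, and its call was lost without any 1 of the pre-malignant libraries or without stably expanded library 1. DESeq2 did not call Fos, Atf3 or Klf6, and edgeR did not call Klf6. In 1 fit of all 9 libraries all 9 calls were lost, at limma adjusted p from 0.0747 (Junb) to 0.159 (Klf4). The summed level of the list was 41412 to 46027 in pre-malignant, 21918 to 27774 in de novo expanded and 14117 to 31287 in stably expanded libraries. The median log2 difference of the list was −0.82 in the de novo and −1.16 in the stably expanded libraries, against 0.01 and 0.00 over all genes. Of 8 heat shock genes, 0 were called, and in the stably expanded libraries 5 of 8 values were below 0 (median log2 difference −0.14), with 2 higher and 0 lower at an unadjusted p under 0.05.

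Averaged as standardized log2 values over the 9 genes with a mean of at least 10, the feedback set was highest in de novo expanded library 2 at 0.81, followed by the pre-malignant libraries at 0.71, 0.36 and 0.54. It was lowest in stably expanded library 1 at −1.08 and de novo expanded library 3 at −0.88. Among 13951 other genes, those whose profile over the 9 libraries was among the most like this average were Lif (Pearson r = 0.976), Klf6 (0.974), Ifi209 (0.972) and Nxpe4 (0.971). These r values rest on 9 libraries that share groups, and with 13951 genes compared they are a description only.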

How the data were processed

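RNA of 9 sorted samples was sequenced after low-input library preparation (SMARTer Stranded Total RNA-Seq Pico kit). Per the labels and methods, the authors trimmed with Trim Galore 0.6.4, aligned with STAR 2.6.1d to GRCm38.p6, counted with featureCounts 1.6.4 and normalized with DESeq2. The deposited values are a signal, counts divided by size factors, in 3 tables of 6 libraries; their fold change and p-value columns hold the authors' own tests and were not used. Whole reads were recovered for at least 99.995% of values (tolerance 0.05) and rescaled over 9 libraries for the levels shown. Groups were compared with limma 3.58.1 (R 4.3.3, trend, two-sided) on log2(normalized count + 1) per table, in genes with a mean of at least 10, with Benjamini-Hochberg adjustment over all genes tested. A call needs an adjusted p under 0.05 and a 2-fold change on that scale, which understates changes of low genes. An exact permutation test of 3 against 3 cannot go below 0.1. Alternatives were edgeR 4.0.16, DESeq2 1.42.0, other pseudocounts, filters and scalings, and each library left out. The analysis was tested on simulated data. Nothing states whether libraries of a group were prepared apart, so p-values measure the spread between these samples only.

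The 10 genes and the gene lists were chosen with earlier results of these data known. Named list genes are those called in any comparison or, where none was, up to 4 with the smallest p; Etv5 is an exception. The 5 most similar genes have the highest Pearson r. Some items that these rules select are not reported here. Motifs were searched in RefSeq promoters. 42643 of 55401 genes had a read, and intervals and floors of 3 reads cover counting error only.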

Additional observations from a re-analysis of the deposited data

How the results depend on the processing

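Of the values under alternatives, 881 stayed the same, 37 lost and 28 gained a call, 15 reversed and 28 counts of calls moved. A log2 difference stayed the same if it kept its direction and stayed called or not called. A count of calls did so if it was equal or close to the main count. Between de novo expanded and pre-malignant libraries, 0 genes and 0 feedback genes were called. With no filter on low values 5 genes were called, with DESeq2 62 genes and 1 feedback gene (Dusp1), and in 1 fit of all 9 libraries 5 genes. With 1 library left out, 0 to 215 genes and 0 to 4 feedback genes were called. Between stably expanded and pre-malignant libraries (384 genes, 1 feedback gene), 1 fit of all 9 libraries called 9 genes and 0 feedback genes, and no fold limit 1110 and 3. A mean of at least 50 left 0 feedback genes, since Phlda1 was then not tested, and quantile normalization gave 2. With 1 library left out, 205 to 458 genes and 0 to 4 feedback genes were called. Between stably and de novo expanded libraries (1 gene, 0 feedback genes), no filter gave 2 genes, DESeq2 32 and 1 fit of all 9 libraries 2. With 1 library left out, 0 to 511 genes and 0 to 1 feedback genes were called.

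Reversals of log2 differences came only from fits with 1 library left out, in genes that were not called in these comparisons. Against the pre-malignant libraries, the de novo expanded difference ran from −0.31 to 0.60 for Dusp5, −0.54 to 1.28 for Dusp6, −0.41 to 0.33 for Dusp10 and −0.20 to 0.036 for Spry2. Between stably and de novo expanded libraries it ran from −0.10 to 0.48 for Dusp1, −0.48 to 0.44 for Dusp5, −0.14 to 0.092 for Spry2 and −0.61 to 0.24 for Phlda1. Without a filter the median log2 difference of all genes moved to −0.18 and −0.31 in the comparisons with the pre-malignant libraries. The cause was not tested for any of these changes beyond the smaller number of samples or genes.

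No paired analysis was possible because the labels tie no library to a clone or mouse within its group. With 3 libraries a group, the standard errors of Dusp6 reached 0.86 and 1.20 on the log2 scale, and Dusp4 was not tested at its low counts. Where a group had 2 libraries after leaving 1 out, the fit assumed a spread common to both groups.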
